A study of Mus musculus with 6 samples.

Results

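The E proteins Tcf3 and Tcf12, the Id factors Id2 and Id3, and 6 further regulators of T cell development (Myb, Runx1, Runx3, Ets1, Satb1 and Bcl11b) were followed through RNA sequencing of splenic invariant natural killer T (iNKT) cells from mice. The 10 genes were taken by name from a deposited expression table of 48709 genes, and all 10 were found. The labels describe 6 samples of iNKT cells flow sorted from spleen in the resting state, 3 from wild type (WT) mice and 3 from mice labelled Gpx4 cKO, in which Gpx4 was deleted conditionally. The promoter driving the recombinase, the alleles and the age of the mice are not given in the labels, and no label says whether each sample came from 1 animal or from a pool. The table names its libraries by numbers, 18 to 23, that match no label, so 0 of the 6 libraries could be assigned to a genotype. The regulators are therefore described library by library, and no comparison of Gpx4 cKO with WT was made.

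E proteins are basic helix-loop-helix activators that bind E-box motifs as dimers. In T cells Tcf12 (HEB) and Tcf3 (E2A) form such dimers and open the T cell receptor loci, and Tcf12 is needed for the thymocyte stage from which iNKT cells arise. Id factors have the helix-loop-helix domain but no basic region, so they pair with E proteins and keep them off DNA. Runx factors bind DNA with their partner Cbfb, Ets1 binds motifs with a GGAA core and often acts beside Runx1, Myb supports thymocyte survival and proliferation, Satb1 organises chromatin loops, and Bcl11b secures commitment to the T lineage.

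Sequences at the starts of Runx1 and Runx3, paralogs compared below, and of Id2, the most abundant member per kilobase, are shown first. They are RefSeq reference sequence in the build GRCm38.p6, given 5′ to 3′ on the strand of the gene, and capitals mark the motif matches. Windows of 300 bases, from 250 before to 50 after an annotated start, were found for 9 of the 10 members, 17 windows in all. Ets1 had no window, so it was not searched for any motif. The longest run of bases shared by the Runx1 and Runx3 windows was 18 bases long and held the Runx motif ACCACA in 2 copies; it was searched after the windows had been compared.
Runx1, chr16:92826025-92826054, minus strand: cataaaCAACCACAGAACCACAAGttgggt
Runx3, chr4:135120503-135120532, plus strand: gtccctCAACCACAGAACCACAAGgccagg
The run lay 27 to 44 bases after the outer of the RefSeq starts of Runx1. In Runx3 it lay 136 to 119 bases before the start (positions -136 to -119). On either strand it occurred in 4 of 32851 windows of all genes (0.0122%), which belonged to Runx1, Runx2, Runx3 and the predicted gene Gm16225. A single ACCACA occurred in 16.8% of windows, and among the members in those of Runx1 and Runx3 only.

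The 250 bases before the Id2 start held 1 E-box of the form CAGCTG, at positions -196 to -191, as shown here.
Id2, chr12:25096093-25096342, minus strand: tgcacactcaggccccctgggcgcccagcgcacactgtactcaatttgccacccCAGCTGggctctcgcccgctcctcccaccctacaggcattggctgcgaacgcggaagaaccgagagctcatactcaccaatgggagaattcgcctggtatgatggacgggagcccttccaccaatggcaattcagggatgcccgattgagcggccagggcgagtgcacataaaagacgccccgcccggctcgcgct
Another 2 E-box forms were searched, all on both strands. The Id3 window held none of the 3 forms, and its RefSeq start lies 325 bases inside the gene as the deposited table gives it. CAGCTG occurred in 16.3% of all windows and in those of Id2, Satb1 and Tcf12 among the members. CACCTG occurred in 20.2% and was found for Runx1, Runx3 and Satb1, and CATCTG occurred in 17.2% and was found for Myb. The Ets core CCGGAA occurred in 14.9% of all windows and in those of Runx1 and Tcf3. These matches describe letters in the reference and not binding in iNKT cells.

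The libraries held 903524 (library 21) to 10122187 (library 19) reads on exons, an 11.2-fold difference in depth. Gpx4, the targeted gene, had 12 to 250 exon reads. Its lowest level was 3.20 CPM (library 19) and its highest 31.3 CPM (library 20), where CPM is the exon count per 1000000 reads after TMM scaling of library sizes. The T cell and iNKT genes Cd3e, Cd3g, Trac, Zbtb16, Cxcr6 and Klrb1c were read in every library and summed to 2755 to 3618 CPM. Of these, Cd3e, Cd3g and Trac (medians 849, 458 and 454 CPM) are not particular to iNKT cells. Cxcr6 had a median of 1014 CPM, Zbtb16 268 CPM and Klrb1c 65.6 CPM. Markers of other cells were read as well. The 9 B cell markers were all read in each library and summed to 250 CPM in library 19 and 397 to 868 CPM in the others, and 5 plasma cell markers summed to 244 to 1287 CPM. Macrophage and monocyte markers summed to 132 to 306 CPM, nearly all of it from Ly6c2 (65.1 to 195 CPM) and Ctss (62.3 to 105 CPM). Cd68, Lyz2, Csf1r, Adgre1 and C1qa had at most 3.62 CPM each, with C1qa at 0 in 5 libraries. Erythroid markers summed to 4.22 to 240 CPM. Dendritic cell markers summed to at most 18.1 CPM, natural killer and innate lymphoid markers to at most 21.7 CPM with Klra8 at 0 throughout, CD8 T cell markers to at most 2.95 CPM, and neutrophil markers to at most 2.64 CPM. Their part in the levels below was not tested.

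Per kilobase of exon, the members spanned more than 2 orders of magnitude and kept nearly the same order in every library. In the deposited RPKM, reads per kilobase of exon and per 1000000 reads, the medians over 6 libraries were 324 for Id2, 75.2 for Ets1, 31.2 for Satb1, 14.5 for Runx3, 12.4 for Bcl11b, 8.98 for Runx1, 8.41 for Tcf3, 7.09 for Tcf12, 2.29 for Myb and 0.710 for Id3. The first 5 places and the last 2 were the same in all 6 libraries, while Runx1, Tcf3 and Tcf12 exchanged places 6 to 8. The ranges of Id2 (233 to 500 RPKM), Ets1 (67.3 to 84.1 RPKM) and Satb1 (28.6 to 40.5 RPKM) did not overlap each other or those of the genes below them. Neighbours from Runx3 (11.6 to 17.9 RPKM) down to Tcf12 (5.05 to 8.56 RPKM) overlapped. Myb (1.80 to 3.70 RPKM) lay below Tcf12, and Id3 (0.292 to 1.07 RPKM) below Myb, with no overlap in either case. In bulk RNA such as this, fewer cells expressing a gene and less of its RNA per cell cannot be told apart.

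**Figure D1:**
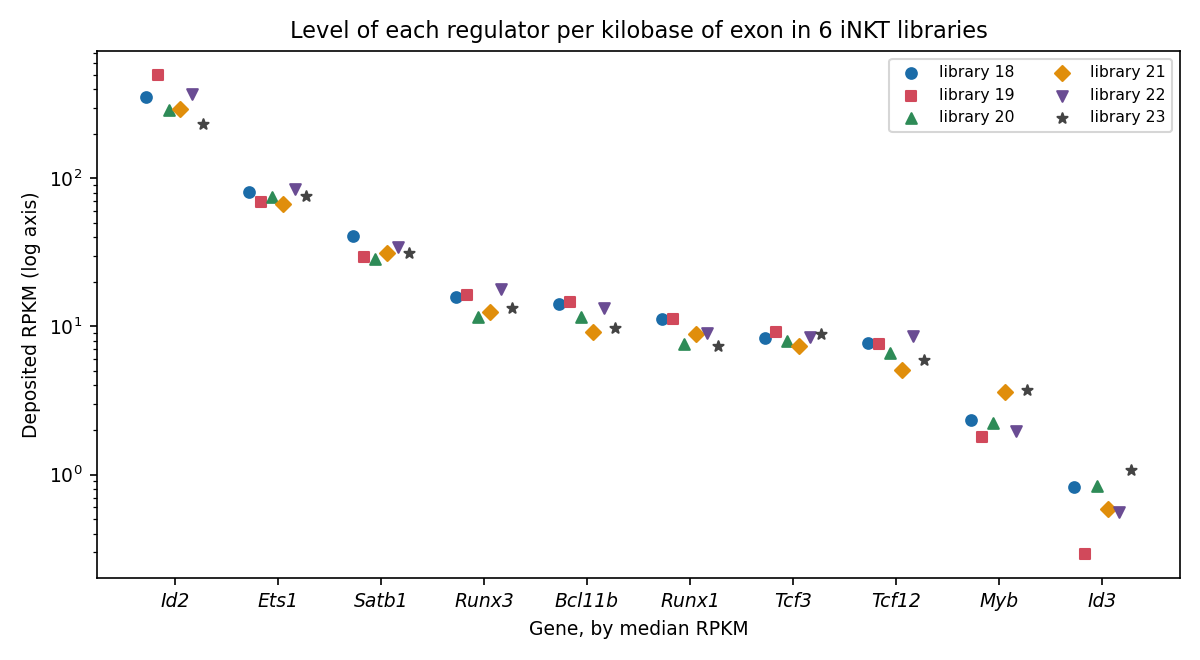
Deposited RPKM of the 10 regulators (log axis) in the 6 libraries, with genes ordered by their median and 1 symbol per library. Id2 sits highest, from 233 to 500 RPKM, and Id3 lowest, from 0.292 to 1.07 RPKM, in every library.

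Between libraries the members differed by modest folds. Of the 9 members with at least 200 reads, 8 had counts that varied over the libraries beyond counting error (chi-square test with 5 degrees of freedom against the scaled library sizes, Benjamini-Hochberg adjusted p under 0.05 over all tested genes), beside 71.6% of the 9042 genes tested. The count is thus close to that of other genes, and the test says nothing of genotype. The adjusted p values given below for exon counts of single members come from this test over all libraries. No pair of libraries was tested. Libraries compared as highest and lowest were picked by their values, which the intervals of their ratios do not allow for. The highest CPM was within 2-fold of the lowest for 8 of the 10 members, beside 72.9% of tested genes, and the median fold range of the 9 tested members was 1.45, beside 1.58 for all tested genes. Among the 6262 tested genes with a median CPM at least that of Myb, the lowest tested member, the median fold range was 1.44. Of those genes, 76.0% differed between libraries. The 1.58 for all tested genes, also given below, includes genes with a lower median CPM. Which library was highest and which lowest was the same under TMM, DESeq2 size factors, total exon reads and RPKM for Tcf12, Id2 and Id3, and changed with the scaling for the other members.

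Tcf3, the E2A gene (ENSMUSG00000020167, chr10:80409514-80433647, minus strand), was the tested member whose counts did not differ beyond counting error. Its CPM was 71.3, 73.9, 78.0, 68.8, 69.2 and 78.6 in libraries 18 to 23. The highest was 1.14 times the lowest (95% interval 0.836 to 1.58; adjusted p = 0.53), so the interval leaves room for a difference of up to 1.58-fold. Tcf12, the HEB gene (ENSMUSG00000032228, chr9:71842688-72111871, minus strand), had 184, 169, 179, 130, 196 and 148 CPM. Libraries 21 and 23 were the low ones, and library 22 exceeded library 21 by 1.503-fold (1.23 to 1.85). Over all libraries the chi-square adjusted p was 3.1e-06.

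The balance of the E proteins shifted slightly between libraries. On the RPKM scale, Tcf3 over Tcf12 was 1.08, 1.22, 1.21, 1.47, 0.985 and 1.48 in libraries 18 to 23. The intervals were 0.873 to 1.11 in library 22 and 1.21 to 1.82 in library 23, which do not overlap. The remaining E protein gene, Tcf4 (E2-2), which is known from plasmacytoid dendritic cells and B cells, was low at 0.153 to 0.445 RPKM in 5 libraries. In library 21 it was listed at 2.23 RPKM, on 80 reads. Tcf3, Tcf12 and Tcf4 together came to 14.7 to 17.4 RPKM, a 1.18-fold range. Without Tcf4 the sum ran from 12.5 RPKM in library 21 to 17.0 RPKM in library 22, a 1.36-fold range.

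Id2 (ENSMUSG00000020644, chr12:25093801-25096092, minus strand), the Id factor of effector, memory and innate-like lymphocytes, was the most abundant member per kilobase and had the third widest range, after Id3 and Myb. Its CPM was 947, 1258, 881, 856, 957 and 650.0 in libraries 18 to 23. Library 19 stood above and library 23 below the other 4, whose values lay between 856 and 957. The intervals for library 19 (1237 to 1280) and library 23 (614 to 687) overlapped that of no other library. The ratio of library 19 to library 23 was 1.94 (1.83 to 2.05), and the chi-square adjusted p over all libraries was 1.79e-220. Without library 19 the fold range was 1.48, and without library 23 it was 1.47.

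Id3 (ENSMUSG00000007872, chr4:136143497-136145755, plus strand), the Id factor that antigen receptor signals induce in thymocytes and that naive T cells retain, was close to the limit of the data. It had 26, 11, 20, 2, 11 and 8 exon reads, 78 in all, or 3.13, 1.04, 3.64, 2.41, 2.03 and 4.22 CPM. Library 19 was lowest although it was the deepest library. Library 23 exceeded it by 4.07-fold with a wide interval (1.42 to 11.1), and without library 19 the fold range fell to 2.07. With 78 reads Id3 was below the minimum for the test. When genes with at least 50 reads were tested it passed the threshold, beside 69.3% of all genes tested at that minimum.

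Library 19, lowest for Id3, was also lowest for the summed B cell markers, at 250 CPM. The early growth response gene Egr1 was lowest there as well, at 41.5 CPM against up to 101 CPM in library 22. The related genes Egr2 and Egr3, with too few reads for the test, were not lowest in library 19. Egr2 was lowest in library 18 (2.41 CPM, against 4.99 CPM in library 19). Egr3 was lowest in library 23 (1.05 CPM on 2 reads, against 3.39 CPM in library 19), where Id3 was highest. The immediate early gene Fos had 103 CPM in library 19 and 405 to 994 CPM in the other libraries. The part of these markers and genes in the Id3 level was not tested. The genes with the most similar pattern over the 6 libraries, by the root mean square difference of median-centred log2 CPM among 6098 genes, were Tob1 (0.30), St8sia6 (0.30) and Ly6c2 (0.32). Each was lowest in library 19, as Id3 was, which follows largely from their choice by this pattern. The Id3 pattern itself rests on 78 reads.

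Id RNA exceeded E protein RNA in every library. Id2 plus Id3 over Tcf3 plus Tcf12 plus Tcf4 was 21.7, 29.5, 19.3, 20.02, 21.4 and 15.3 on the RPKM scale in libraries 18 to 23, with a median of 20.7. Library 19 was highest and library 23 lowest, as for Id2 alone, also without Tcf4 (29.7 and 15.8). With CPM, which does not divide by exon length, the median ratio was 3.33. Id2 exceeded Id3 by 217-fold in library 23 to 1713-fold in library 19, with intervals of 110 to 505 and 957 to 3433. The other Id genes were nearly unread: Id1 had 3 reads over all libraries and Id4 had 0.

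**Figure D2:**
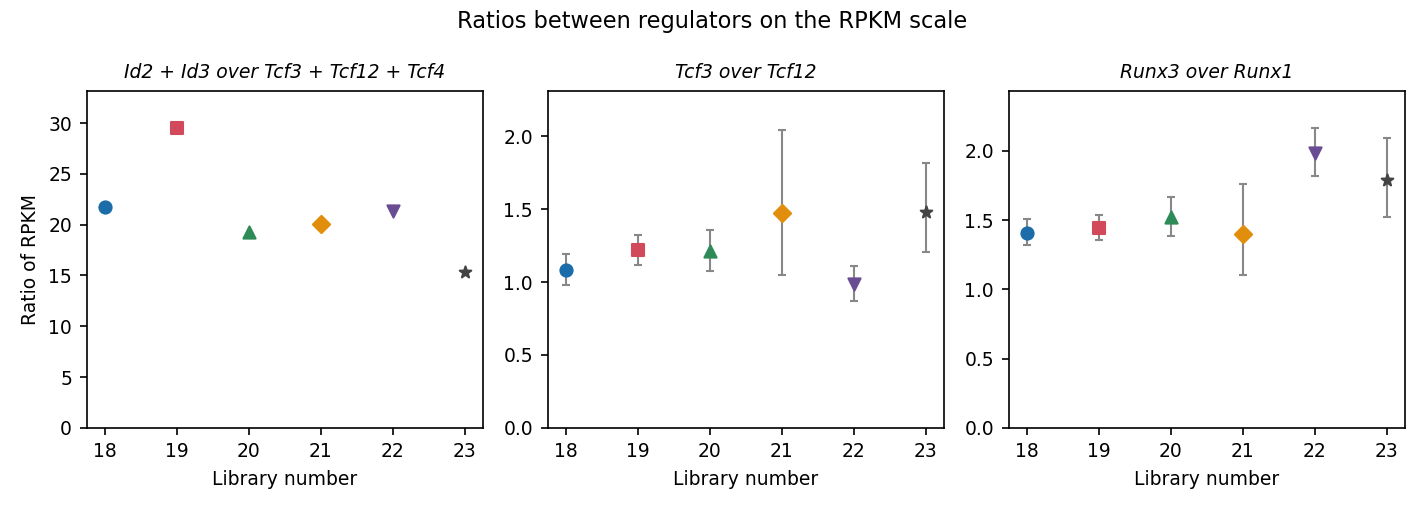
Ratios of deposited RPKM in each library, for Id2 plus Id3 over the 3 E protein genes (left), Tcf3 over Tcf12 (middle) and Runx3 over Runx1 (right); bars, where drawn, are 95% counting intervals. The Id to E protein ratio runs from 15.3 in library 23 to 29.5 in library 19, and library 22 has the highest Runx3 over Runx1 ratio, 1.99.

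Of 46 genes listed as partners or relatives of E proteins and Id factors, 25 had enough reads for the test and 16 differed between libraries, beside 71.6% of all tested genes. The median fold range of the 25 was 1.37, beside 1.58 for all tested genes. Of the 25, 23 stayed within 2-fold, beside 72.9% of all tested genes, and the exceptions were Tcf4 (16.8-fold) and the aryl hydrocarbon receptor gene Ahr (3.01-fold). The most abundant by CPM were Mga, a Max partner (median 332 CPM), the repressor Bhlhe40 (302 CPM), and the coactivators Ncoa3 (265 CPM) and Ncoa2 (234 CPM), all of which differed between libraries, by 1.23-fold to 1.43-fold. Id4, Msc and Mesp1 had no read in any library, where 3 reads would amount to between 0.296 (library 19) and 3.32 (library 21) per 1000000 exon reads.

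Genes described as targets of E proteins were read at widely different levels. Of 27 such genes, 18 were tested and 17 differed between libraries, beside 71.6% of all tested genes. Their median fold range was 1.47, beside 1.58 for all tested genes. The interleukin 7 receptor gene Il7r had a median of 1076 CPM (873 to 1297), the T cell receptor complex genes Cd3e and Trac 849 and 454 CPM, and the coreceptor gene Cd4 400.2 CPM. The thymocyte genes were almost unread: over all 6 libraries the recombinase genes Rag1 and Rag2 had 6 and 4 reads, the pre-T cell receptor gene Ptcra 12 and the terminal transferase gene Dntt 5.

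**Figure D3:**
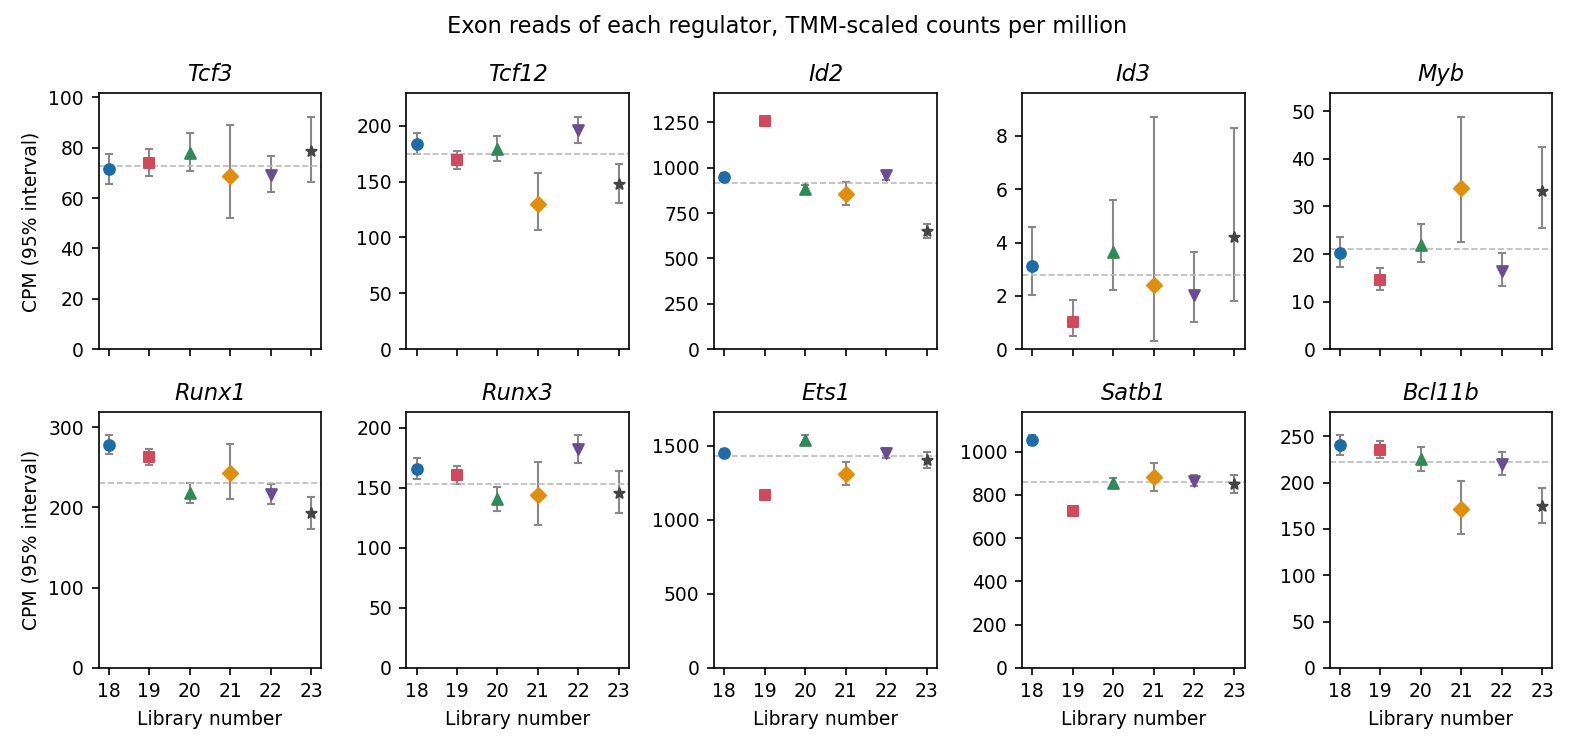
TMM-scaled CPM of each regulator by library, with exact 95% Poisson intervals and the median as a dashed line; the vertical axes start at 0 and differ between panels. Tcf3 stays between 68.8 and 78.6 CPM, Id2 is highest in library 19, Satb1 is highest in library 18, and Myb is high in libraries 21 and 23.

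The Runx genes, whose windows share the run shown above, were both expressed, and their highest and lowest libraries differed. Runx1 (ENSMUSG00000022952, chr16:92601466-92826149, minus strand), needed for the precursors of iNKT cells, had 278, 263, 218, 243, 217 and 192 CPM in libraries 18 to 23. Libraries 18 and 19 were high and library 23 low, a range of 1.45-fold (1.29 to 1.62; adjusted p = 4.66e-20). Runx3 (ENSMUSG00000070691, chr4:135120652-135177990, plus strand), which supports cytotoxic programmes and interferon-γ expression with T-bet, had 166, 161, 141, 144, 182 and 146 CPM. It was highest in library 22 and lowest in library 20, a range of 1.30-fold (1.18 to 1.42; adjusted p = 5.79e-06).

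Per kilobase Runx3 exceeded Runx1 in all 6 libraries, by 1.41, 1.45, 1.52, 1.40, 1.99 and 1.79 times in libraries 18 to 23. Library 22 (interval 1.82 to 2.16) did not overlap libraries 18 to 21, of which the highest upper bound was 1.76. The order depends on exon length, 11827 bases for Runx1 and 5003 bases for Runx3. By CPM, which does not divide by length, Runx1 exceeded Runx3 in every library. Both measures count all exon reads, including any from unspliced RNA. The third paralog, Runx2, was low, with a median of 0.614 RPKM. Cbfb, the partner of all of them, had a median of 90.4 CPM and a range of 1.19-fold.

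Among 10 listed partners of Runx factors, 8 were tested and 7 differed between libraries, beside 71.6% of all tested genes, with a median fold range of 1.65 against 1.58. Tle4, a Groucho corepressor, had a median of 175 CPM, the scaffold gene Sin3a 164 CPM and the deacetylase gene Hdac1 146 CPM. Sin3a was the gene that did not differ beyond counting error (adjusted p = 0.16). Tbx21, encoding T-bet, had a median of 94.1 CPM and a 2.71-fold range. Its lowest value, 59.0 CPM, was in library 23 and its highest, 160 CPM, in library 18, the libraries that were lowest and highest for Runx1 CPM.

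Library 21, the shallowest, carried an excess of exon reads of 3 list genes, named after their values were seen. Tle3, a Groucho corepressor, had 2802 CPM there and 62.2 to 93.1 CPM elsewhere, and its intron share was 2.23% against 29.3% to 45.1%. Etv3, an Ets family repressor, had 1230 CPM there and 204 to 269 CPM elsewhere, with an intron share of 4.499% against 14.3% to 20.3%. Tcf4 had 96.5 CPM there and 5.74 to 18.5 CPM elsewhere, with an intron share of 25.9% against 76.3% to 86.9%. In all 3 genes the exon level was higher there and the intron share lower. No member had an exon level in library 21 that lay this far above the others.

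Ets1 (ENSMUSG00000032035, chr9:32636221-32757820, plus strand), which iNKT cells need in order to form in normal number, had the highest median CPM of the members and a narrow range. Id2 exceeded it in library 19 only. Its CPM was 1450, 1168, 1536, 1307, 1449 and 1403 in libraries 18 to 23. Library 19 was lowest and library 20 highest, 1.31-fold apart (1.28 to 1.35), and the chi-square adjusted p over all libraries was 2.08e-103. On other scales the lowest was library 21, with total exon reads as the depth and with RPKM.

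Of 21 other Ets family genes, 14 were tested and 9 differed between libraries, beside 71.6% of all tested genes, with a median fold range of 1.47 against 1.58. The most abundant were Elf1 (median 570 CPM, 1.21-fold range), Elf4 (303 CPM), Elk4 (269 CPM) and Etv3 (219 CPM). The myeloid and B cell factor Spi1 (PU.1) had 18 reads and its relative Spib 50 reads over all libraries.

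Satb1 (ENSMUSG00000023927, chr17:51736187-51833290, minus strand) stood out in library 18. Its CPM was 1054, 724, 854, 881, 866 and 850.4 in libraries 18 to 23. Libraries 20 to 23 were alike, and libraries 18 and 19 lay above and below them with intervals (1032 to 1076 and 708 to 740.3) that overlapped no other, although by RPKM library 20 was lowest. The range was 1.46-fold (1.41 to 1.501; adjusted p = 3.89e-123), and 1.04-fold among libraries 20 to 23. Bcl11b (ENSMUSG00000048251, chr12:107910403-108003602, minus strand) had 240.4, 235, 225, 171, 220.0 and 175 CPM, and libraries 21 and 23 were low. Its range was 1.40-fold (1.18 to 1.67; adjusted p = 6.02e-08).

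Of 42 other T lineage regulators, 30 were tested and 29 differed between libraries, beside 71.6% of all tested genes, with a median fold range of 1.47 against 1.58. Chd4, the ATPase of the NuRD complex, had a median of 649.9 CPM. The Ikaros family genes Ikzf3 (Aiolos) and Ikzf1 (Ikaros) had 632 and 629 CPM, and the nuclear receptor gene Rora 445 CPM. None of these 4 ranged over more than 1.48-fold.

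Myb (ENSMUSG00000019982, chr10:21124936-21160905, minus strand) had the widest range of the tested members. Its CPM was 20.2, 14.6, 22.0, 33.8, 16.4 and 33.2 in libraries 18 to 23, on 28 to 168 reads. Libraries 21 and 23, both shallow, were high, and their intervals overlapped. The interval of library 21 also overlapped those of libraries 18 and 20, and that of library 23 overlapped that of library 20. Library 21 exceeded library 19 by 2.32-fold (1.49 to 3.48), and the chi-square adjusted p over all libraries was 5.87e-08. With total exon reads as the depth, and with RPKM, the highest was library 23 and the lowest again library 19.

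The proliferation genes Mki67 and Top2a were also highest in libraries 21 and 23. Mki67 had 392 and 558 CPM there and 171 to 250.4 CPM in the other libraries, and Top2a 239 and 303 CPM there and 76.0 to 144 CPM in the others. Among those others the order differed from that of Myb. Library 19, lowest for Myb, was the highest of them for Mki67 (250.4 CPM) and Top2a (144 CPM). Library 20 was lowest for both. The part of Mki67 and Top2a in the Myb level was not tested. The genes with a pattern most like that of Myb, by the measure used for Id3, were Gramd4 (0.16), Anxa2 (0.17) and Tiam1 (0.18). Each was lowest in library 19, which again follows largely from their choice by pattern.

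The share of a gene's reads that fell on introns separated the members widely. The median share over libraries was 92.3% for Runx1, 85.6% for Tcf12, 73.9% for Bcl11b, 68.3% for Satb1, 48.0% for Myb, 47.4% for Ets1, 33.2% for Tcf3, 29.0% for Runx3 and 8.41% for Id2, beside 40.5% for all tested genes. Runx1 and Runx3 lay at nearly opposite ends. Introns cover 212857 bases of Runx1 and 52336 bases of Runx3, against 1022 bases of Id2. Per kilobase, exon reads of Runx1 exceeded its intron reads by 1.48 times, those of Runx3 by 24.6 times and those of Id2 by 8.51 times. Id3 had 4 recovered intron reads and is left out here.

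**Figure D4:**
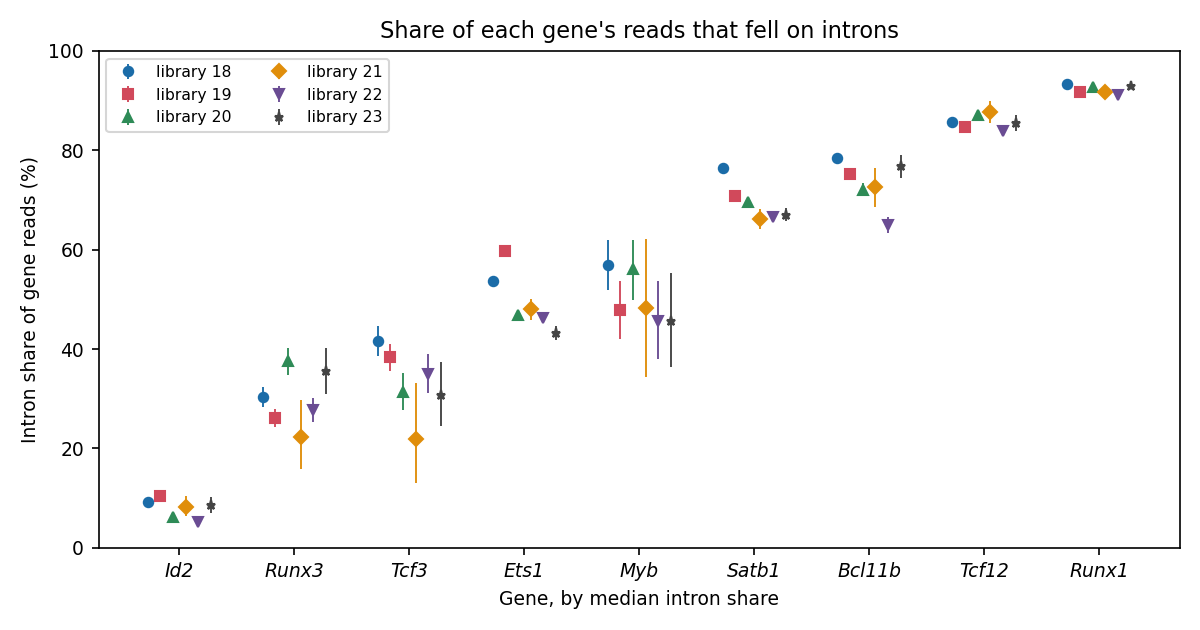
Percentage of each gene's exon and intron reads that fell on introns, by library, with 95% binomial intervals; Id3 is not drawn. Shares run from 5.21% to 10.4% for Id2 up to 91.2% to 93.3% for Runx1, and Ets1 in library 19 and Satb1 in library 18 lie above the other libraries.

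The intron share differed between libraries for all 9 members tested, beside 70.5% of the 8509 genes tested (chi-square test of intron against exon reads, adjusted p under 0.05). The call for Myb (adjusted p = 0.0433) was lost when library 18, 19, 20, 22 or 23 was left out. The median range between libraries was 11.2 percentage points for the members and 13.3 for all tested genes. For Ets1 the share was 53.6%, 59.6%, 46.8%, 48.0%, 46.3% and 43.2% in libraries 18 to 23. It was highest in library 19, where the exon level of Ets1 was lowest. For Satb1 it was 76.5%, 70.7%, 69.6%, 66.2%, 66.6% and 67.0%, so that library 18 was highest for both the share and the exon level.

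Intron reads per 1000000 intron reads of each library (intron CPM) were set beside the exon levels of the same genes. The 2 readings are not independent, since unspliced RNA covers exons too. Per kilobase, exon reads of Satb1 exceeded its intron reads by 2.69 times and those of Runx1 by 1.48 times. The part of unspliced RNA in the exon levels was not tested. Satb1 had 3711 intron CPM in library 18 and 1830 to 2072 in the others, and Runx1 had 4220 in library 18 and 2684 to 3387 in the others. Id2 was highest in library 19 on introns as on exons, with 169 intron CPM against 57.8 to 105 elsewhere, and its share was 10.4% there and 5.21% to 9.25% elsewhere. The lowest library was 23 on Id2 exons and 20 on its introns. Tcf3, whose exon counts did not differ beyond counting error, ranged from 20.5 intron CPM in library 21, on 16 reads, to 55.0 in library 18. Its share ran from 21.9% to 41.6%.

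Genes that overlap the members could have shared reads with them, since the use of strand in counting is not given in the sources used here. Antisense genes had 12 exon reads in all inside Myb, 14 inside Runx1 and 42 inside Ets1, against 624, 8041 and 44483 exon reads of the members. The other overlapping genes, 11 in Tcf12, 6 in Satb1 and 1 in Runx3, had none.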

How the data were processed

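Per the labels' protocols, a NucleoSpin RNA XS Micro kit was used for RNA of the 6 samples and a QIAseq UPXome kit for the libraries. The submitters' processing notes name the builds GRCm38 and mm10. How reads were aligned and counted, and whether molecular identifiers were used, is not given in the sources used here. Per the file headers, the deposited table holds whole read counts on exons, not normalized, the fraction of each gene's reads on introns, and RPKM, scaled by the authors to exon length and depth. A further 11 columns of values were not used. No library name matched a label (0 of 6), so the planned genotype test was not run.

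The members, the gene lists and the tests were chosen with earlier results of these data known, and the motifs after the windows were seen. The text names Gpx4, the members, the 4 most abundant other genes of each list by median CPM, genes read at 0, and, for members ranging over at least 2-fold, the 3 genes nearest in pattern with a mean of at least 20 CPM; other named genes were chosen after their values were seen. CPM used TMM factors from edgeR 4.0.16 (R 4.3.3), and Python 3.11.15 with scipy 1.17.1 was used for the rest. Intron reads were computed from the exon count and the intron fraction and rounded. Genes with at least 200 exon reads, and for intron shares also 50 intron reads, entered the chi-square tests. The tests were first run on counts simulated with counting error only. That cannot show how they behave on reads with further spread, such as PCR copies. Intervals are exact at 95% and, like the tests, cover counting error only, since copies made by PCR are not independent molecules. Nothing says that the samples are separate animals. RefSeq windows were matched by symbol.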

Additional observations from a re-analysis of the deposited data

How the results depend on the processing

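No paired analysis was possible because the library names match no label, and the comparison of genotypes with and without the replicate numbers was not run. The same 8 members differed between libraries with DESeq2 size factors, with total exon reads, with TMM factors from all genes and without any single library; with a minimum of 50 reads 9 of 10 did, beside 69.3% of genes. Scaling by total exon reads moved library 21 by 0.12 (log2) and the other scalings by at most 0.04. The number of members with a differing intron share was 8 to 9 without single libraries. Of 30 fold ranges under other scalings, 27 stayed within the counting interval; with RPKM, Id2 came to 2.14, Runx3 to 1.54 and Ets1 to 1.25. Without a single library, 53 of 60 did. The median Id to E protein ratio was 20.02 to 21.4 without single libraries, 21.9 without Tcf4, and 3.33 with CPM, which does not divide by length. Depth limits Id3 in all libraries and every member in library 21, where Id3 had 2 reads and Myb 28.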
